A study of Mus musculus with 4 samples.

Results

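The 9 genes described here encode receptors that steer lymphocytes: the chemokine receptors Ccr7, Ccr4, Ccr8, Cxcr3, Cxcr4 and Cxcr5, the sphingosine-1-phosphate receptor S1pr4, the prostaglandin E2 receptor Ptger4 and the oxysterol receptor Gpr183. They were chosen by name, through probe sets that the platform annotation assigns to exactly 1 gene. All 9 were found, with 11 probe sets of the 34945 that name 1 gene, and they are 9 of 18193 genes represented. Expression was measured on 4 Affymetrix arrays from T29, a mouse thymic lymphoma cell line that the series calls Ikaros-deficient. All 4 samples carried MigR1-MLER, a retroviral construct for an inducible dominant-negative Mastermind. Treatment lasted 24 h: 2 samples received ethanol, the solvent, and 2 received 4OHT at 100 nM, a tamoxifen metabolite used to switch on oestrogen receptor fusion proteins. The comparison asks which genes respond when Notch-dependent transcription is blocked. T29 is 1 cell line, and every sample analysed here held the construct, so an effect of 4OHT itself and one of the construct cannot be told apart. Whether the replicates came from separate cultures is not in the labels; the p-values therefore reflect the spread among these 4 samples, and that spread may be technical.

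Chemokine receptors are G protein-coupled receptors that pull cells up a gradient of a chemokine, mostly through Gi proteins, which lower cyclic AMP and free the beta-gamma subunits that activate the migration machinery. In the thymus, Cxcr4 holds early progenitors near its ligand and works together with the pre-T-cell receptor, Ccr4 and Ccr7 guide positively selected cells towards the medulla, and Cxcr3, Ccr8 and Cxcr5 are better known from effector, regulatory and follicular T cells. Ptger4 differs in that it couples mainly to Gs, which raises cyclic AMP. Mastermind is the co-activator that the Notch and RBPJ complex needs to switch on its targets.

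Levels are the deposited log2 values (RMA) of each gene's lead probe set, the one with the highest mean over the 4 arrays. A difference of 1 on this scale is 2-fold. Differences are 4OHT minus ethanol. A gene was tested if its lead mean reached 4.81, the 40th percentile over probe sets naming 1 gene; 11581 genes did. Array medians were between 5.12 and 5.14, and Pearson's r over tested genes was 0.995 and 0.995 within groups and 0.983 to 0.987 between them. The Notch readout Dtx1 was at 9.41 and 9.43 in the ethanol group and at 6.01 and 6.01 in the 4OHT group. Of 11 T-lineage markers with a probe set, 9 were at or above 4.81, while Cd2 (3.76 with ethanol, 3.51 with 4OHT) and Cd5 (4.76 and 4.54) were below it. Of the tested T-lineage markers, Ptcra, which pairs with the beta chain before alpha rearrangement, fell 4.71-fold (limma adjusted p = 0.00221) and Cd3g fell 1.48-fold (0.0356), while Cd247 rose 1.60-fold (0.0347) and Cd8a rose 1.78-fold (0.0347). Of 40 markers of B, NK, dendritic, myeloid, stromal and erythroid cells, 14 were at or above 4.81 and none was called. The brightest of them were H2-Ab1 (8.97 with ethanol, 8.78 with 4OHT) and Pdgfrb (8.65 and 8.36). The B-cell list summed to 26.1 to 26.5 with ethanol and 26.0 to 26.0 with 4OHT. In that list Pax5 (5.39 and 5.29) and Cd22 (5.11 and 4.89) were above 4.81, and the rest, Ms4a1 and Cd79a among them, were below it. For the 18S ribosomal RNA control, the 3′ minus 5′ difference was larger on both 4OHT arrays (0.90 and 0.82) than on both ethanol arrays (0.051 and 0.32). The same difference overlapped between the groups for the Actb and Gapdh controls. For Actb it was 0.40 and 0.49 with ethanol and 0.43 and 0.45 with 4OHT. For Gapdh it was -0.068 and 0.030 with ethanol and -0.030 and -0.033 with 4OHT. The part of these markers and of the 18S control in the results was not tested.

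None of the 9 receptor genes passed the test. The nearest was Ptger4, whose mean was 1.55-fold higher with 4OHT, followed by Cxcr3, 1.32-fold higher. Ccr4, Cxcr4 and S1pr4 gave smaller or less certain differences, and Ccr7, Ccr8, Cxcr5 and Gpr183 had lead probe sets too dim to be tested. By limma at an adjusted p under 0.05, 0 of 5 tested receptor genes were called, against 7.47% of all tested genes (3.90% higher with 4OHT and 3.57% lower). At an unadjusted p under 0.05, Ptger4 and Cxcr3 were higher, 2 of 5, against 12.3% of tested genes, and none was lower, against 13.2%. The groups separated upwards for 2 of 5 (26.7% of tested genes) and downwards for none (30.2%). All 5 had a mean above that of ethanol, as 47.7% of tested genes did, and their median difference was 0.40 against -0.012 over all tested genes. With 2 arrays a group, an exact permutation test cannot give a two-sided p below 0.333, so the call rests on the spread that limma pools over genes. In RNA from whole cultures, fewer cells with a transcript and less transcript per cell cannot be told apart.

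**Figure D1:**
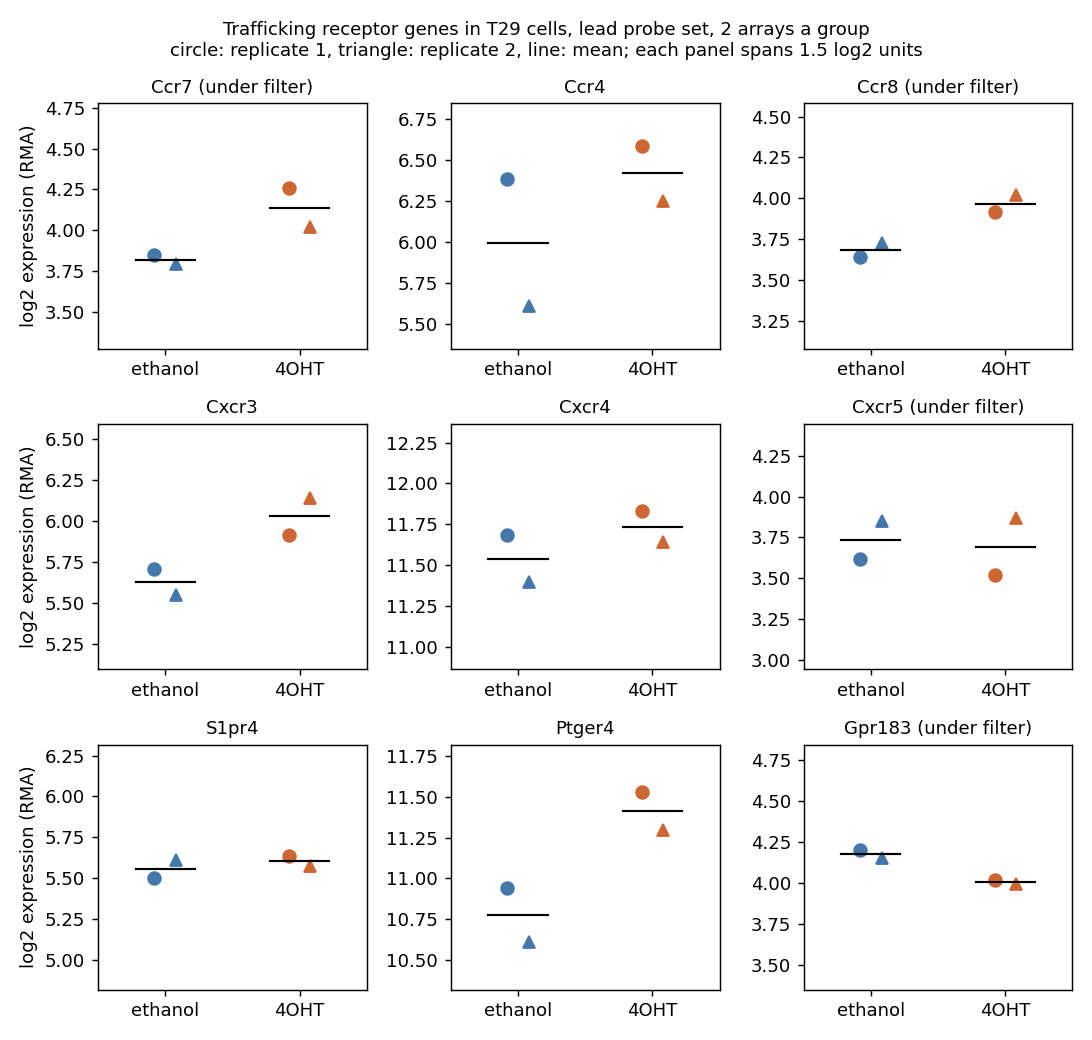
Log2 expression (RMA, vertical axis) of the lead probe set of each of the 9 receptor genes on the 2 ethanol arrays and the 2 4OHT arrays, with replicates marked by shape and the group mean as a line; every panel spans the same height. The groups separate upwards for Ccr7, Ccr8, Cxcr3 and Ptger4 and downwards for Gpr183, and overlap for Ccr4, Cxcr4, Cxcr5 and S1pr4. Of tested genes, 26.7% separated upwards and 30.2% downwards. Of genes under the filter, which include Ccr7, Ccr8 and Gpr183, 9.98% and 28.1% did.

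Among the CXC receptors, Cxcr3, which binds the interferon-induced ligands Cxcl9 and Cxcl10, read 5.70 and 5.55 on the arrays of the ethanol group and 5.92 and 6.14 on those of the 4OHT group. Both 4OHT arrays lay above both ethanol arrays. The difference was 0.40 ± 0.12 (SE; 95% interval 0.11 to 0.69), with a limma adjusted p of 0.104. Cxcr4, the receptor for Cxcl12, was at 11.68 and 11.39 in the ethanol group and at 11.83 and 11.64 in the 4OHT group. The lower 4OHT array lay below the higher ethanol array, so the groups overlapped, and replicate 1 was the higher array in each group. The Cxcr4 difference was 0.20 ± 0.13 (limma 95% interval -0.14 to 0.53, adjusted p = 0.408), an interval that holds both no change and a rise of 0.53. The difference was 0.052 without ethanol replicate 2, 0.10 without 4OHT replicate 1 and 0.34 without ethanol replicate 1. Cxcr5, the follicular homing receptor that binds Cxcl13, was dim on all 4 arrays, at 3.62 and 3.85 in the ethanol group and at 3.52 and 3.87 in the 4OHT group. Its difference of -0.042 was smaller than the distance between the replicates of either group, and its sign depended on which array was left out (-0.21 to 0.13).

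Among the CC receptors, Ccr4, which binds Ccl17 and Ccl22, had the widest spread. It was at 6.38 and 5.61 in the ethanol group and at 6.59 and 6.25 in the 4OHT group, and the groups overlapped. The difference of 0.43 ± 0.27 had a limma 95% interval of -0.25 to 1.10 and an adjusted p of 0.376. It came to 0.81 without ethanol replicate 1 and to 0.037 without ethanol replicate 2. It was 0.26 without 4OHT replicate 1.

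Ccr7 and Ccr8 were both under the testing filter on every array. Ccr7, the receptor for Ccl19 and Ccl21 that brings cells into lymph nodes and the thymic medulla, was at 3.85 and 3.79 in the ethanol group and at 4.26 and 4.02 in the 4OHT group. Ccr8, the receptor for Ccl1, was at 3.64 and 3.73 in the ethanol group and at 3.91 and 4.02 in the 4OHT group. For both, each 4OHT array lay above each ethanol array, with differences of 0.32 for Ccr7 and 0.28 for Ccr8. Of the 6612 genes under the filter, 9.98% had groups that separated upwards in this way and 28.1% had groups that separated downwards, while 34.8% had a higher mean with 4OHT. In a fit over all 34945 probe sets that name 1 gene, where 1.52% were called higher and 0.953% lower, neither was called, with a limma adjusted p of 0.251 for each. Values this low lie near the background of an array, where RMA compresses differences.

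**Figure D2:**
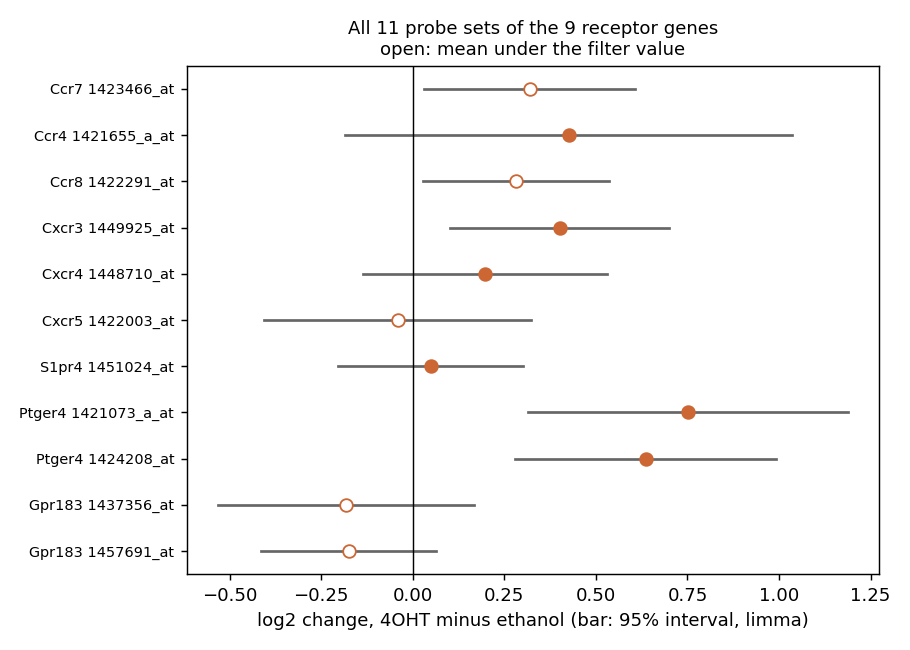
Log2 change, 4OHT minus ethanol (horizontal axis), of all 11 probe sets of the 9 receptor genes, with 95% intervals from the limma fit over all probe sets that name 1 gene; open points mark probe sets with a mean under 4.81. The intervals of both Ptger4 probe sets and of Cxcr3, Ccr7 and Ccr8 lie above 0 before adjustment, and no probe set passed after it. Of these, Ccr7 and Ccr8 have means under 4.81. In the separate fit over tested genes, 12.3% were higher at an unadjusted limma p under 0.05. That share was not computed for the fit drawn here, which called 1.52% of probe sets higher and 0.953% lower after adjustment.

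Ptger4 gave the largest difference of the 9 genes, and it had a pair of probe sets that both showed it. The lead probe set was at 10.94 and 10.61 in the ethanol group and at 11.53 and 11.30 in the 4OHT group, so that the groups did not overlap. The difference was 0.64 ± 0.15 (limma 95% interval 0.27 to 1.00, adjusted p = 0.0625). The other probe set was at 7.97 and 7.48 in the ethanol group and at 8.60 and 8.35 in the 4OHT group, a difference of 0.75 with an adjusted p of 0.1 in the limma fit over all probe sets. Within each group and for each probe set, replicate 1 was higher than replicate 2. Ptger4 missed the threshold by a narrow margin, and the margin depended on the fit. Its limma adjusted p was 0.0465 with a filter at the 60th percentile, where 500 of 8356 tested genes were called higher. With an intensity trend in limma it was 0.026, in a fit that called 5.72% of tested genes higher. Ptger4 was not called with no filter (limma adjusted p = 0.0704), quantile normalization (0.0622), median centring (0.0682), the mean of probe sets (0.0604) or without _x_at and _s_at probe sets (0.0657). Its difference ranged from 0.47 without ethanol replicate 2 to 0.80 without ethanol replicate 1, and it was not called without any 1 array (adjusted p from 0.0847 to 0.235).

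The promoter of Ptger4 is shown because it belongs to the receptor gene nearest to the threshold, and that of Gpr183 because it alone, of 7 receptor genes with a RefSeq promoter, holds the RBPJ core. Each is the 250 bases before the annotated start, 5′ to 3′ on the gene's strand, from RefSeq (GRCm38.p6). Ptger4 lies on the minus strand at chr15:5244188-5244437 and Gpr183 on the minus strand at chr14:121965194-121965443. Capitals mark matches on either strand to TGGGAA (RBPJ core), to GGGAA (Ikaros core, which lies within the RBPJ core) and to CCACCC (bound by KLF factors).
Ptger4: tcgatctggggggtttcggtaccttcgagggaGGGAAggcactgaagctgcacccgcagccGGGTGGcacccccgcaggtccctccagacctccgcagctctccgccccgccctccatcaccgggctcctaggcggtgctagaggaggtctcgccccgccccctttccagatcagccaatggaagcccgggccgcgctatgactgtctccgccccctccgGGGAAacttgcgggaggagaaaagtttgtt
Gpr183: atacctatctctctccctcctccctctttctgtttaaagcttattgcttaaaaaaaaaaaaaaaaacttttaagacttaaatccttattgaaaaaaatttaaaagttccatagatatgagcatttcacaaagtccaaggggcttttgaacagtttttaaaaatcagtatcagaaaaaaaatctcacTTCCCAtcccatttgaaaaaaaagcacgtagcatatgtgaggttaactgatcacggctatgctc

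The Ptger4 window holds GGGAA at 2 places and CCACCC at 1, on the opposite strand, and has a GC content of 66.8%. The Gpr183 window holds TGGGAA on the opposite strand, from base -64 to base -59 before the start, and has a GC content of 32%. TGGGAA was found in 1 of the 7 windows, against 21.6% of all 32851 RefSeq promoter windows of this length. GGGAA was found in 4 of 7 (56.2% of all windows) and CCACCC in 3 of 7 (28.1%). The MYC E-box CACGTG and the FOXO motif TGTTTAC were found in none of the 7, against 6.02% and 3.17% of all windows. A match is a stretch of letters, not evidence of binding.

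The other lipid receptors gave a small difference or were dim. S1pr4, a sphingosine-1-phosphate receptor of lymphocytes, was at 5.50 and 5.61 in the ethanol group and at 5.64 and 5.57 in the 4OHT group. Its arrays interleaved, with a difference of 0.049 ± 0.091 (limma 95% interval -0.18 to 0.28, adjusted p = 0.777). That interval ends below the difference of 0.40 measured for Cxcr3 but overlaps the Cxcr3 interval of 0.11 to 0.69. A difference between these genes was not tested. Gpr183, which guides B cells and dendritic cells along oxysterol gradients, was under the filter at 4.20 and 4.15 in the ethanol group and at 4.01 and 3.99 in the 4OHT group. As for 28.1% of genes under the filter, both 4OHT arrays of Gpr183 lay below both ethanol arrays. Its means differed by 0.18. Its other probe set had overlapping groups and a difference of -0.18, and neither passed (limma adjusted p = 0.444 and 0.601 over all probe sets).

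The other chemokine receptors held the strongest called rises among the related genes. Of 16 with a probe set, 7 were tested, 2 rose and none fell, with a median of -0.025. Of all tested genes, 3.90% were called higher and 3.57% lower, the shares to set beside this list and those below. Ccr9, the thymocyte receptor for Ccl25, was at 7.93 and 7.90 in the ethanol group and at 10.22 and 10.44 in the 4OHT group, a rise of 2.41 ± 0.10 (limma adjusted p = 0.00178). Cxcr6, the receptor for Cxcl16, was at 4.96 and 4.78 in the ethanol group and at 7.48 and 7.01 in the 4OHT group, a rise of 2.38 ± 0.17 (limma adjusted p = 0.00788). Both kept the call whichever array was left out. Of the 5 probe sets of Ccr9, 2 were dim and gave 0.073 and 0.38. The ethanol mean of Cxcr6, 4.87, lay just above the filter value of 4.81, so the size of its rise is uncertain. The other Cxcr6 probe set gave a rise of 1.66, from a dim mean of 3.65 with ethanol to 5.31 ± 0.73 with 4OHT (mean ± SD, n = 2). The other 5 tested members of that list, Ackr1, Ackr2, Ccr2, Ccr6 and Ccr10, lay between -0.17 and 0.058.

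Among the other receptors for sphingosine-1-phosphate, prostaglandins and related lipids, 3 of 9 tested rose and none fell, with a median of 0.36. Ptgir, the prostacyclin receptor, which like Ptger4 couples to Gs, rose 2.10-fold (1.07 ± 0.13, limma adjusted p = 0.0183). P2ry10, a lysophospholipid receptor of lymphocytes, rose 1.80-fold (adjusted p = 0.0457). S1pr2, a sphingosine-1-phosphate receptor that restrains migration through G12 and G13 proteins, rose 1.66-fold (0.73 ± 0.10, adjusted p = 0.0216), with a smaller difference of 0.19 at its other probe set. Lpar6, chosen after its value was seen, gave 1.13 and an adjusted p of 0.0503 in limma. S1pr1, the receptor that lets mature T cells leave the thymus and also chosen after its value was seen, was under the filter at 4.25 with ethanol and 4.12 with 4OHT.

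Most ligands of the receptors were under the filter. Of 9 chemokine genes with a probe set, 6 were under it, 3 were tested and none passed in limma, with 1 lower at an unadjusted p under 0.05. That gene was Cxcl12, the ligand of Cxcr4, with means of 5.12 in the ethanol group and 4.91 in the 4OHT group (limma adjusted p = 0.186). The other Cxcl12 probe sets, both dim, gave 0.13 and -0.031. Cxcl13, the ligand of Cxcr5, was at 5.23 and 5.14 (limma adjusted p = 0.703). Among enzymes and transporters that make or clear the lipid ligands, 1 of 10 rose and none fell, with a median of -0.016. Plpp3, a phosphatase that degrades extracellular sphingosine-1-phosphate, rose 3.50-fold, from 7.11 ± 0.26 to 8.91 ± 0.25 (mean ± SD, n = 2 each; limma adjusted p = 0.0116). Abcc4, an exporter that carries prostaglandins, was at 8.19 and 7.67 (limma adjusted p = 0.0828).

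Downstream of the receptors, G proteins, receptor kinases, arrestins and RGS proteins gave 1 rise and no fall among 19 tested, with a median of 0.015. Rgs2, which speeds the shut-off of G proteins, rose 2.42-fold (1.28 ± 0.09, limma adjusted p = 0.00538); 1 of its 4 probe sets, a dim one, gave -0.035. Rgs19 had means of 8.84 in the ethanol group and 8.54 in the 4OHT group (limma adjusted p = 0.0953). Of 32 migration effectors, all tested, 25 had a difference above 0, as 47.7% of all tested genes did, and the median over the list was 0.26. Of these effectors, 4 rose by call and none fell. They were Prex1, a Rac exchange factor driven by beta-gamma subunits (1.81-fold, adjusted p = 0.0232), Fmnl1, a formin (1.52-fold, adjusted p = 0.0469), Stk4, the Mst1 kinase needed for thymocyte egress (1.49-fold, adjusted p = 0.0248), and Adcy7, an adenylyl cyclase (1.47-fold, adjusted p = 0.0286), each from limma. The call of Fmnl1 was lost with no filter, with quantile normalization and without _x_at and _s_at probe sets (adjusted p up to 0.0626).

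Of 14 tested transcription factors known to act on homing receptor genes, 5 rose and none fell, with a median of 0.40. Bcl6, the follicular T-cell repressor, rose 1.78-fold (limma adjusted p = 0.0266), Id3 1.66-fold (adjusted p = 0.0469), Foxo3 by 0.59 on the log2 scale (adjusted p = 0.0267) and Klf3 1.44-fold (adjusted p = 0.0376). The 5th was Ikzf1, the Ikaros gene itself, with means of 10.03 in the ethanol group and 10.49 in the 4OHT group (1.38-fold, limma adjusted p = 0.0361). The series calls T29 Ikaros-deficient, and whether this RNA gives working Ikaros was not tested. Ikzf1 and Klf2 are given because of their values. Klf2, an activator of S1pr1, was 5.45 and 7.33 in the ethanol group and 5.19 and 5.83 in the 4OHT group, so replicates lay far apart and the groups overlapped (limma adjusted p = 0.411). The calls of Bcl6 and Klf3 were lost with the mean of their probe sets. Of 11 tested surface partners of homing, 2 rose and none fell, with a median of 0.19: the hyaluronan receptor Cd44 (limma adjusted p = 0.0119) and the integrin beta chain Itgb2 (0.59 on the log2 scale, adjusted p = 0.0315). The Cd44 mean was 4.76 with ethanol, under the filter value, and 5.97 with 4OHT, so the gene was tested through its 4OHT arrays and no exact fold is given. Its probe sets ranged from -0.056 to 1.21.

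Over these lists, 18 of 105 tested genes rose, against 3.90% of all tested genes, and none fell, against 3.57%. In limma, 36 were higher and 7 were lower when p was not adjusted (under 0.05), against 12.3% and 13.2% of all tested genes. Leaving out Cd44 and Gpr65, the other tested related gene with a group mean under the filter value, 17 of 103 rose. The lists were chosen with earlier results of these data known. Of the 18, 5 kept the call without ethanol replicate 1, 7 without ethanol replicate 2, 2 without 4OHT replicate 1 and 5 without 4OHT replicate 2, in fits with 1 residual degree of freedom. Without ethanol replicate 2, Gata3 was called as well. Of the 17 called genes chosen by rule, Ccr9 and Cxcr6 were called in each of these fits. P2ry10, S1pr2, Fmnl1, Stk4, Adcy7, Bcl6, Foxo3, Klf3 and Itgb2 were called in none of them. Plpp3 and Rgs2 lost the call only without 4OHT replicate 1, and Cd44 without either 4OHT array.

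**Figure D3:**
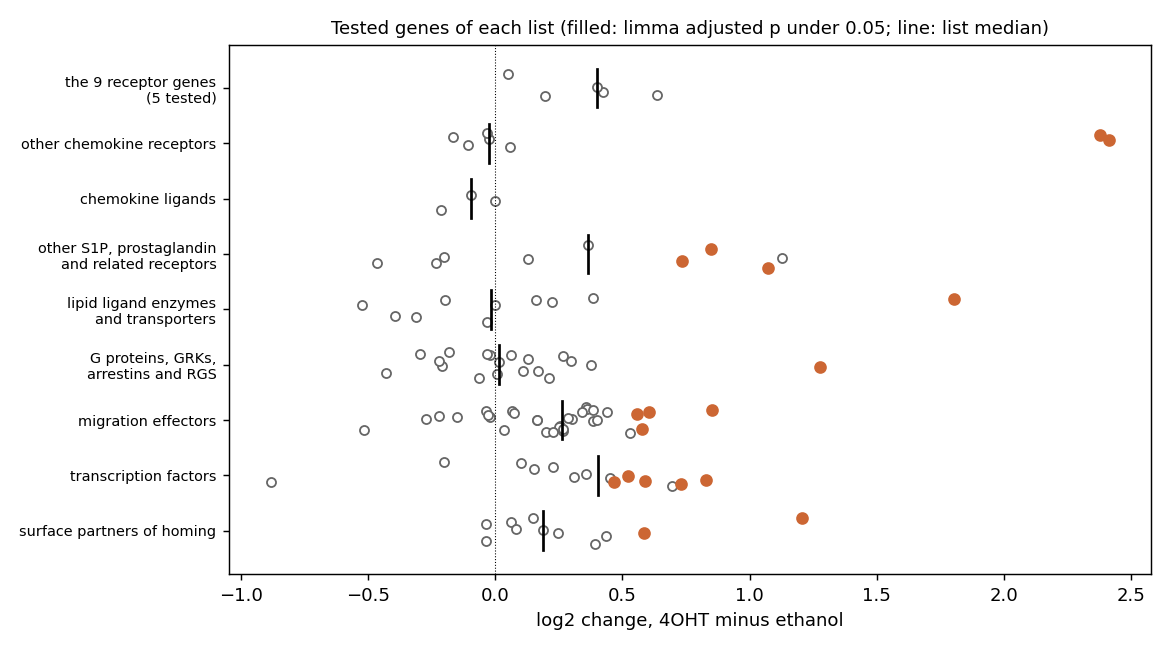
Log2 change, 4OHT minus ethanol (horizontal axis), of the tested genes of each list, 1 point per gene, filled where the limma adjusted p was under 0.05, with the list median as a line. The 5 tested receptor genes lie between 0.049 and 0.64 with none filled, while Ccr9 and Cxcr6 stand apart near 2.4.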

How the data were processed

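The values deposited by the authors are log2 expression levels of probe sets, produced with RMA per the submitters' processing notes, which state no version. Their range fits a log2 scale. RMA corrects background, equalises the arrays and summarises probes. It gives no detection call, so dim genes were set aside by the percentile filter. The number of arrays limits precision. Of 45101 probe sets, 64 were controls, 34945 named 1 gene, 932 several and 9211 none. Symbols were checked by gene number against RefSeq (GRCm38.p6): none changed and 204 had no match.

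A linear model over all 4 arrays, without a block, gave the comparison (lmFit and eBayes of limma 3.58.1, R 4.3.3). P-values were adjusted by Benjamini-Hochberg across 11581 tested genes. The fit was tested on simulated data. Members and lists were chosen with earlier results of these data known. Of 164 listed related genes, 154 had a probe set. Named were the 9 receptor genes and, per list, up to 4 called genes by size, filled to 2 by smallest p. Genes most like a called receptor gene were to be named, but none was called. The replicate block, filters, scalings, trends, probe set choices and left-out arrays were tried as alternatives.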

Additional observations from a re-analysis of the deposited data

How the results depend on the processing

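No receptor gene was called lower under any setting tried, and 0 were called higher without any 1 array. The number called higher was 3 with the replicate number as a block (Ptger4, adjusted p = 0.00246; Ccr4, 0.0383; Cxcr3, 0.0402, all limma), where 9.53% of tested genes were called higher and 8.90% lower. The labels do not say whether equal replicate numbers pair samples across the groups, and only 2 such pairs exist. The replicate 1 minus 2 differences of the groups correlated positively, at 0.34 over tested genes. Whether the numbers pair the samples was not tested, so neither fit can be preferred on this ground. The number was 1, Ptger4, with a filter at the 60th percentile (which tested only Ptger4 and Cxcr4 of the 9), with an intensity trend, with a trend and a robust prior, and at an adjusted p under 0.1. Over all tested genes, 452 higher and 413 lower became 1104 and 1031 with the replicate block, 853 and 824 at an adjusted p under 0.1, 679 and 666 with a trend and robust prior, 636 lower with a trend, and 9 to 125 higher and 12 to 66 lower with 1 array left out. Of the related genes, 18 higher became 32 with the replicate block and 2 to 8 with 1 array left out. The 0 lower became 6 with the block, 5 at an adjusted p under 0.1, and 1 each with the filter at the 60th percentile, median centring, a trend, and a trend with robust prior. With 1 array left out, signs turned for S1pr4 (-0.0081 without ethanol replicate 1, range to 0.11) and Cxcl13 (0.021 without ethanol replicate 1 and 0.038 without 4OHT replicate 2, range from -0.23), neither called, and for Cxcr5, which was not tested (0.075 without ethanol replicate 2, 0.13 without 4OHT replicate 1). The causes were not tested. Receptor genes under 4.81 had too little signal for their differences to be measured well.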
